A study of Bos taurus with 8 samples.

Results

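The RNA levels of 10 genes that mark the endothelium and the sinusoids of the liver were compared between fetal calves of undernourished and well-fed dams. The genes were PECAM1, VWF, CDH5, KDR, FLT1, TEK, TIE1, ENG, LYVE1 and STAB2, taken as every array probe whose RefSeq accession belongs to one of them, and they are 10 of the 12603 genes that could be matched to the array and of the 10860 detected on it. Liver RNA came from Japanese Black fetuses at 8.5 months after conception. The dams of 4 LN (low-nutrition) fetuses, named L5, L6, L8 and L9, received 60% of their nutritional requirement during gestation, and those of 4 HN (high-nutrition) fetuses, named L1, L2, L3 and L10, received 120%. No group was fed at exactly the requirement. The paper's methods state that the lightest LN fetuses and the heaviest HN fetuses were chosen, so the groups are extremes of body weight as well as of diet. Labels name a single fetus per array, whereas the series text speaks of pooled RNA, so the p-values measure the spread between these arrays.

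Blood crosses the liver in sinusoids, capillaries whose endothelial cells are perforated and lack a continuous basement membrane. These cells take up waste molecules from blood through scavenger receptors and carry few of the storage granules and tight junctions of the endothelium in arteries and veins. Vascular growth is directed by VEGF ligands acting on KDR and FLT1, by angiopoietins acting on TEK with its partner TIE1, and by circulating BMP ligands for which ENG is a co-receptor. In the fetus the liver also makes blood cells, so that blood precursors lie beside the vessels.

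The 4 arrays of each group shared a slide with no array of the other group, so that slide and group cannot be told apart. Between 32635 and 34369 of 43803 spots were well above background on each array and 0 were saturated. The array of LN fetus L6 was the dimmest, with a median processed signal of 63.0 against 68.7 to 105.5 on the others, and it had the fewest spots above background. The hepatocyte list had 14 of its 15 markers on the array and all 14 were detected. Their summed signal on the log2 scale was 21.15 to 21.23 in LN and 21.11 to 21.22 in HN. The brightest genes dominate this sum, and quantile normalization gives the top ranks the same values on every array. The likeness of the sum between groups was thus largely set by the normalization. The erythroid list stood apart in LN fetus L5, where its 9 detected genes averaged 2.70 log2 units above their means. Its defining genes SLC4A1, EPB42, KLF1 and RHAG were not detected.

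For none of the 10 endothelial and sinusoidal genes did the difference between LN and HN pass the test against the spread between fetuses. ENG and VWF had the largest shortfalls in LN, by 0.24 and 0.20 log2 units, and LYVE1, KDR and FLT1 the largest excesses, by 0.29, 0.24 and 0.22. PECAM1 was the other gene with a lower mean in LN, and the remaining 4 genes were 0.049 to 0.14 higher. By limma with Benjamini-Hochberg adjustment over 33439 detected probes, 0 of the 10 genes passed an adjusted p of 0.05, with adjusted p-values from 0.809 to 0.978, and 0 of 10860 genes (0%) passed on the whole array. At an unadjusted limma p of 0.05, 0 of 10 genes were called by their brightest probe, where 6.05% of all genes were. The LN and HN values overlapped for all 10 genes, while 4.14% of all genes showed no overlap. The mean was lower in LN for 3 of the 10 genes and for 48.4% of all genes, and a difference of more than 1.25-fold downwards was seen in 0 of 10 and in 8.63% of all genes. The median difference, LN minus HN, was 0.088 over the 10 genes and 0.0075 over all genes. With each array scaled to its 75th percentile these medians were 0.016 and -0.023, and for the 10 genes the median ran from -0.054 without L6 to 0.17 without L9. Differences are given below as LN minus HN ± their standard error, with the p of the exact permutation test and the adjusted p from limma (n = 4 fetuses per group). In bulk tissue, fewer endothelial cells and less RNA per cell cannot be told apart.

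**Figure D1:**
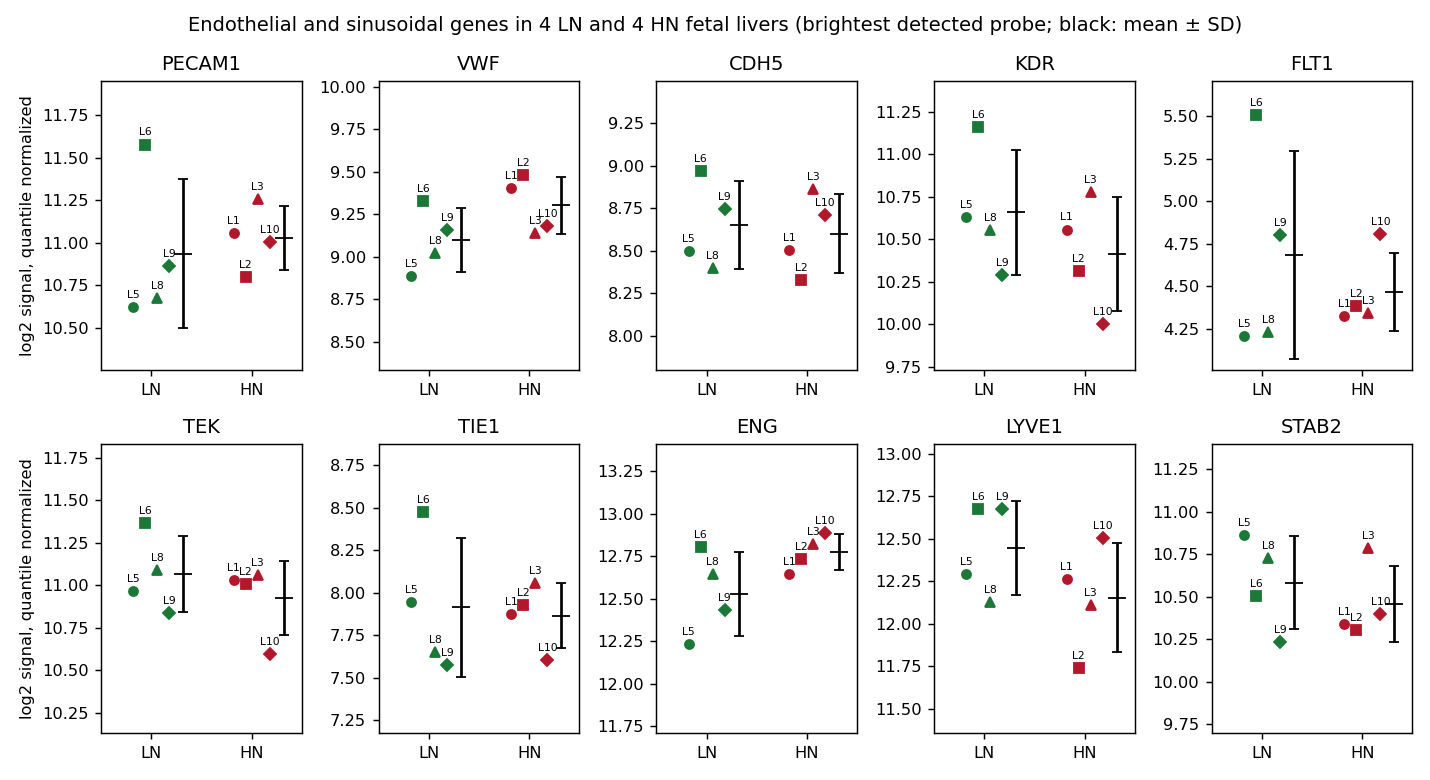
Quantile-normalized log2 signal (vertical axis, the same span in every panel, from a different starting level) of the brightest detected probe of each gene in 4 LN fetuses (green) and 4 HN fetuses (red), with the mean ± SD in black. LN and HN points overlap in all 10 panels, and fetus L6 is the highest point in 6 of them.

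KDR, the main signalling receptor for VEGF-A on endothelium (NM_001110000), was read at log2 signals of 10.63, 11.16, 10.55 and 10.29 in LN fetuses L5, L6, L8 and L9, and at 10.56, 10.32, 10.78 and 10.001 in HN fetuses L1, L2, L3 and L10. The groups overlapped, and fetus L6 lay above all others. The difference was 0.24 ± 0.23 (permutation p = 0.40, adjusted limma p = 0.874), with a 95% confidence interval of -0.27 to 0.76. Without L6 it was 0.078, without L10 it was 0.11 and without L9 it was 0.37. As a mean over both probes it was 0.14.

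FLT1, which binds VEGF-A tightly and also exists as a soluble decoy (NM_001191132), gave dim log2 signals of 4.21, 5.50, 4.23 and 4.8 in LN and 4.32, 4.38, 4.34 and 4.81 in HN, in the same fetus order. L6 in LN and L10 in HN stood above the rest of their groups. The mean difference of 0.22 ± 0.29 (permutation p = 0.714, adjusted limma p = 0.917) became -0.053 without L6, and it was 0.0080 with each array scaled to its 75th percentile. FLT1 had the widest spread of the 10 genes, with a within-group SD of 0.46 log2 units.

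TEK, the angiopoietin receptor (NM_173964), was at 10.97, 11.37, 11.09 and 10.84 in LN and at 11.03, 11.01, 11.06 and 10.60 in HN. Its highest value was again in L6 and its lowest in L10, and the remaining fetuses lay within the other group's range or close to it. The difference was 0.14 ± 0.16 (permutation p = 0.457, adjusted limma p = 0.904), and it was 0.031 without L10, 0.040 without L6 and 0.22 without L9. TIE1, the related receptor that modulates TEK (NM_173965), was at 7.95, 8.48, 7.65 and 7.57 in LN and at 7.87, 7.93, 8.06 and 7.60 in HN. Apart from L6, the LN fetuses ran from 7.57 to 7.95 and the HN fetuses from 7.60 to 8.06. The difference of 0.049 ± 0.21 (permutation p = 0.83, adjusted limma p = 0.978) was -0.14 without L6.

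ENG encodes endoglin, the co-receptor that presents BMP ligands to endothelial cells. Its brightest probe (NM_001076397) was at 12.23, 12.80, 12.65 and 12.43 in LN and at 12.65, 12.73, 12.82 and 12.89 in HN. The LN fetuses L5, L8 and L9 lay below every HN fetus, L8 only just, while L6 lay among the HN values. The difference was -0.24 ± 0.15 (permutation p = 0.114, adjusted limma p = 0.809), an LN level of 0.845 times that of HN with a 95% confidence interval of -0.58 to 0.087 on the log2 scale. ENG was the only one of the 10 genes read by more than 2 probes that all pointed to a lower level in LN.

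ENG probe 2, next in brightness, was at 8.01, 7.76, 8.44 and 7.73 in LN and at 8.54, 8.64, 8.19 and 8.65 in HN. In LN, L8 was above HN fetus L3, and otherwise LN lay below HN. This probe differed by -0.52 ± 0.19 (permutation p = 0.0571, unadjusted limma p = 0.0215, adjusted p = 0.760). Probe 3, at -0.47 ± 0.20 (permutation p = 0.0571, unadjusted limma p = 0.0471, adjusted p = 0.785), had the same pattern over fetuses, and probe 4 differed by -0.31 (permutation p = 0.200). The ENG probes ran together to different degrees, with correlations between 0.40 and 0.99 over the 8 fetuses. Group means were not removed here, so the shared group difference enters these correlations. These 2 ENG probes were the only ones of the 26 detected probes of the 10 genes at an unadjusted p of 0.05, against 6.32% of all detected probes. When fetuses were left out singly, the unadjusted limma p ran up to 0.0601 for probe 2 and to 0.125 for probe 3. Without L6 the brightest probe too came to an unadjusted limma p of 0.0461, with a difference of -0.33. As a mean over its probes ENG was at -0.39. Without L5 the difference of the brightest probe was -0.15, with an unadjusted limma p of 0.323.

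**Figure D2:**
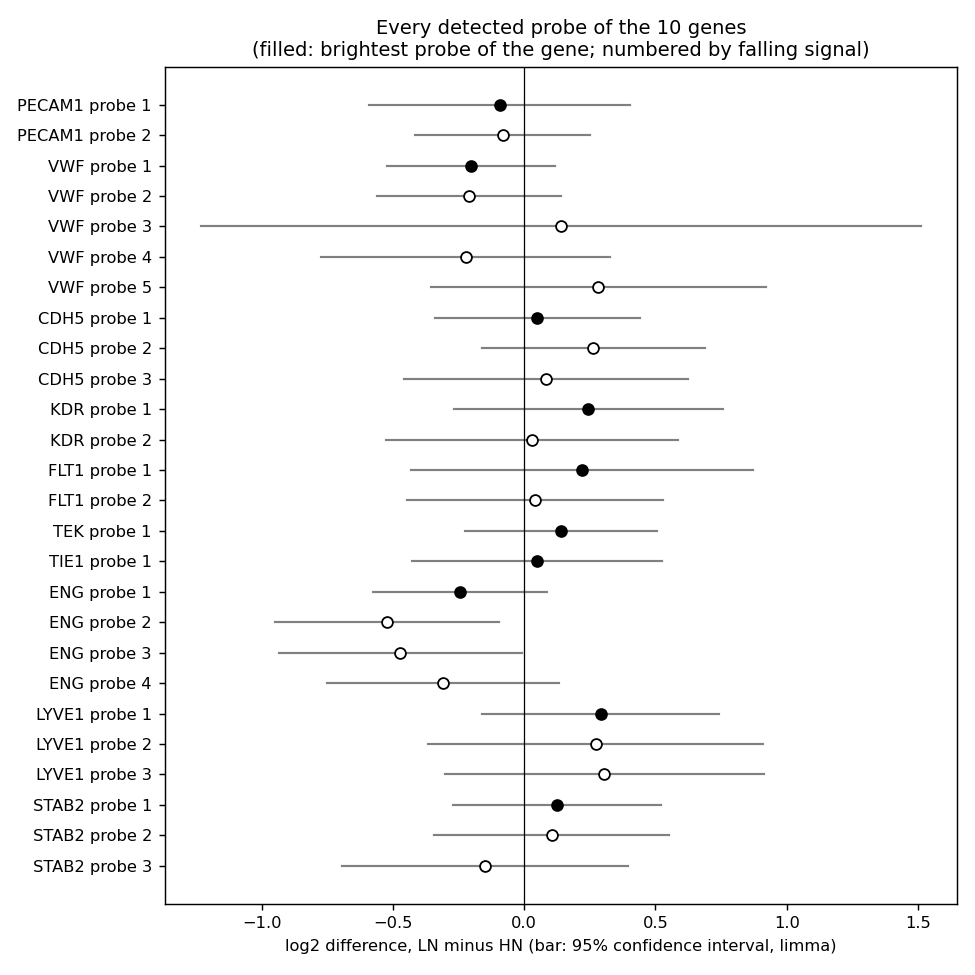
Log2 difference, LN minus HN (horizontal axis), of each of the 26 detected probes of the 10 genes with its 95% confidence interval from limma, the filled circle marking the brightest probe of a gene. The 4 ENG probes lie at -0.24, -0.52, -0.47 and -0.31, and the intervals of probes 2 and 3 alone stay on one side of 0.

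PECAM1, an adhesion molecule at the contacts between endothelial cells that platelets and leukocytes also carry (NM_174571), was at 10.62, 11.58, 10.68 and 10.87 in LN and at 11.06, 10.80, 11.26 and 11.01 in HN. L5 and L8 lay below every HN fetus, L9 among them and L6 above all of them. The difference of -0.093 ± 0.22 (permutation p = 0.743, adjusted limma p = 0.955) was -0.31 without L6 and 0.011 without L5. A second probe differed by -0.082.

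CDH5, the cadherin of endothelial adherens junctions (NM_001001601), was at 8.50, 8.97, 8.40 and 8.75 in LN and at 8.50, 8.33, 8.86 and 8.71 in HN. Both groups covered almost the same range. The difference was 0.050 ± 0.17 (permutation p = 0.771, adjusted limma p = 0.970), with a 95% confidence interval of -0.34 to 0.44, and was -0.055 without L6. The other probes of CDH5 differed by 0.26 and 0.084.

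VWF, the clotting glycoprotein that endothelial cells and platelets store (NM_001205308), was at 8.89, 9.33, 9.02 and 9.16 in LN and at 9.40, 9.48, 9.14 and 9.18 in HN. The HN fetuses L1 and L2 were above every LN fetus, and L3 and L10 were among them. The difference of -0.20 ± 0.14 (permutation p = 0.171, adjusted limma p = 0.834) had a 95% confidence interval of -0.52 to 0.12 and was -0.13 without L5. The probes of VWF did not point one way. The other 4 detected probes differed by -0.21, 0.14, -0.22 and 0.28, correlations between the detected probes ran from -0.66 to 0.94, the mean over detected probes differed by -0.043, and the remaining 2 of its 7 probes were not well above background on any array.

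LYVE1 encodes a receptor for hyaluronan that sinusoidal and lymphatic endothelium carry (NM_205815). It was at 12.30, 12.68, 12.13 and 12.68 in LN and at 12.26, 11.74, 12.11 and 12.50 in HN. L6 and L9 were the highest fetuses and L2 the lowest, with the others intermixed. The difference was 0.29 ± 0.20 (permutation p = 0.171, adjusted limma p = 0.830), an LN level of 1.22 times that of HN with a 95% confidence interval of -0.16 to 0.74 on the log2 scale. The other LYVE1 probes gave 0.27 and 0.31, and without L2 the difference was 0.15. STAB2, a scavenger receptor by which sinusoidal cells clear hyaluronan (NM_001206679), was at 10.86, 10.51, 10.73 and 10.24 in LN and at 10.34, 10.31, 10.79 and 10.40 in HN. The highest STAB2 value was in L5 and not in L6, and the lowest was in L9. It differed by 0.13 ± 0.17 (permutation p = 0.486, adjusted limma p = 0.924), and its other probes by 0.11 and -0.15. The STAB2 difference ran from 0.032 without L5 to 0.24 without L9, and was 0.027 as a mean over its probes.

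The spread of the 10 genes lay between fetuses of the same group, and one fetus held much of it. When each gene was set against its mean over the 8 fetuses, LN fetus L6 averaged 0.41 log2 units above, with 9 of 10 genes above their means, while the other 7 fetuses averaged between -0.13 and 0.095. Highest in L6 were 6 genes (PECAM1, CDH5, KDR, FLT1, TEK and TIE1). That is 60% of the 10 genes, where 14% of all detected genes had their highest value in L6. STAB2 was close to its mean in this fetus. The excess was 0.39 with each array scaled to its 75th percentile, 0.33 after normexp background correction and 0.41 in the authors' log2 table, with all genes averaging between -0.028 and -6.9e-05 in L6 under these settings. The part that the dim array of L6 plays in this was not tested. Without L6, 6 of the 10 genes were lower in LN in place of 3. The median within-group SD was 0.27 log2 units for the 10 genes and 0.23 for all genes, and 7 of the 10 exceeded the latter value.

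**Figure D3:**
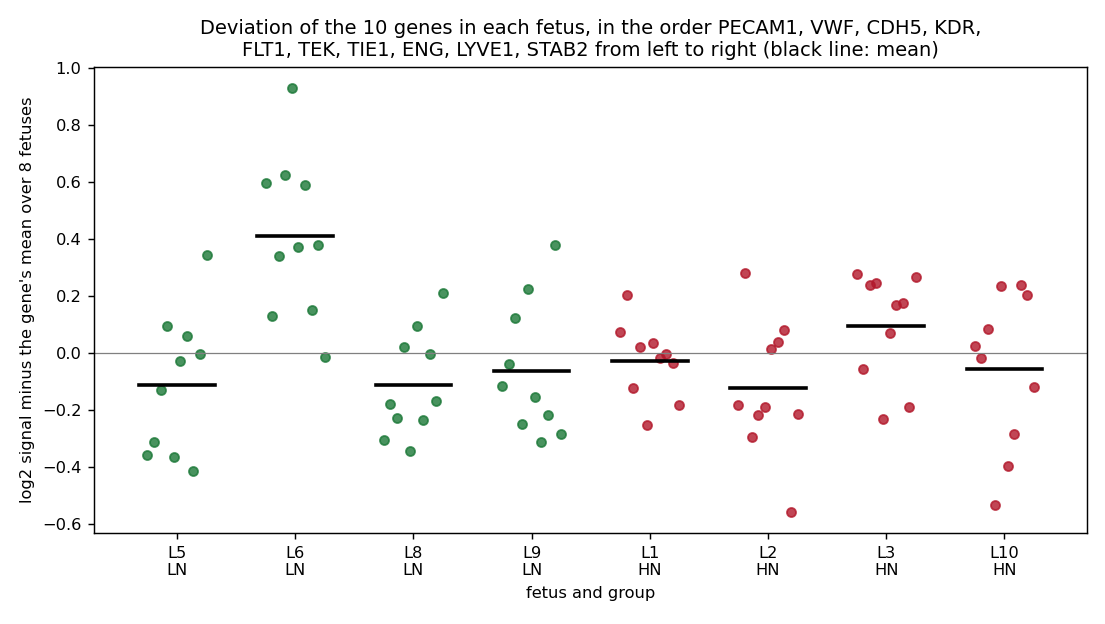
Log2 signal of each of the 10 genes minus its mean over 8 fetuses (vertical axis) in each LN fetus (green) and HN fetus (red), with the mean over genes as a black line. L6 has a mean of 0.41 and 9 of 10 points above 0, and the means of the other fetuses run from -0.13 to 0.095.

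Genes of the endothelium varied together across fetuses, and this rested on L6 as well. With group means removed, the 45 pairs among the 10 genes had a median Pearson correlation of 0.39 over the 8 fetuses, and 37 of them were above 0. The mean was 0.34, against 0.0019 over all pairs of detected genes. KDR and TEK were the closest pair with 0.92, followed by KDR and TIE1 with 0.91 and PECAM1 and CDH5 with 0.86. VWF and STAB2 were the most opposed at -0.73. PECAM1 followed the mean of the other 9 genes with a correlation of 0.98, while LYVE1 had 0.32, VWF 0.36 and STAB2 -0.13. Without L6 the median over pairs was 0.019 and 23 of 45 were above 0. Of 10667 genes outside all lists, VIPR2, a receptor for vasoactive intestinal peptide, was most like the mean profile of the 10 genes (Pearson 0.99, Spearman 0.93, n = 8 fetuses with group means removed). ZNF423, LHFPL2, FOXI1 and GIMAP4 came next with Pearson correlations of 0.98, 0.97, 0.97 and 0.96. Without L6 these were 0.91 for VIPR2, 0.82 for ZNF423, 0.74 for LHFPL2, 0.95 for FOXI1 and 0.61 for GIMAP4.

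The pathways around the 10 genes were read from hand-written lists of 135 further vascular genes, of which 113 were on the array and 107 were detected. LN was lower for 46 of these and higher for 61, with a median difference of 0.044. By limma 0 of 107 passed the adjusted threshold, and 10 (9.35%) had an unadjusted p of 0.05 or less, 4 of them lower and 6 higher in LN, beside 6.05% of all genes. The number lower was 6 of 12 with 75th percentile scaling and 1 of 6 without L2. Values did not overlap between groups for 5 of 107 genes (4.67%), beside 4.14% of all genes. Without L6 the median was -0.038 and 7 genes had an unadjusted p of 0.05 or less.

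In the VEGF list, 11 of 14 detected genes were higher in LN and 1 of 14 was at an unadjusted p of 0.05, near the 6.05% of all genes. HIF1A, the oxygen-regulated transcription factor subunit, was at 10.80, 10.86, 10.81 and 10.79 in LN and at 10.57, 10.52, 10.64 and 10.54 in HN. Every LN fetus lay above every HN fetus, by a mean of 0.25 ± 0.10 (permutation p = 0.0286, the smallest this design can give, adjusted limma p = 0.782). Any gene without overlap between groups has this permutation p, here and below, so it restates the separation. The ligand VEGFA, which HIF1A is known to induce, differed by 0.26 ± 0.14 (permutation p = 0.114, adjusted limma p = 0.799), with overlap, and by 0.16 without L8. VEGFB differed by -0.15 (-0.044 without L3 and -0.066 without L8), VEGFC by 0.014, and PGF, a ligand of FLT1, by 0.12. Among the co-receptors NRP1 differed by 0.063 and NRP2 by 0.081, and the signs for PGF, NRP1 and NRP2 turned under another scaling or background correction. PTPRB, the phosphatase that restrains TEK and KDR signalling, differed by 0.22 (permutation p = 0.257), by 0.087 without L6, by 0.14 without L10 and by 0.36 without L3. Without L6, 7 of the 14 genes were lower and 7 higher, and without L10, 6 were lower. FLT4 was not matched on the array.

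Of 6 detected genes in the angiopoietin list, 4 were lower in LN, and 2 were without L1. ANGPT1, which activates TEK, differed by 0.058 and ANGPT2, its context-dependent antagonist, by 0.27 ± 0.48 (permutation p = 0.629). ANGPT2 was at 6.13, 8.36, 6.67 and 8.09 in LN and at 6.94, 6.55, 7.30 and 7.39 in HN, so L6 and L9 were the highest of all fetuses and L5 the lowest. The difference was -0.082 without L6. GRB14, an adaptor known to bind TEK and the insulin receptor, was at -0.42 ± 0.18 (permutation p = 0.0571, adjusted limma p = 0.785), and at -0.27 without L3.

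In the list around ENG, 7 of 14 detected genes were lower in LN and 7 higher. BMP10, a circulating ligand of ENG, was at 5.65, 4.41, 4.58 and 4.84 in LN and at 3.90, 3.84, 3.45 and 3.39 in HN. These are dim signals, and every LN fetus was above every HN fetus. The difference was 1.23 ± 0.27 (permutation p = 0.0286, adjusted limma p = 0.723), and it was 0.28 after normexp background correction. GDF2, the liver ligand also called BMP9, differed by 0.15 ± 0.10 (permutation p = 0.0571, adjusted limma p = 0.830) and by 0.013 with 75th percentile scaling and 0.083 with normexp, and ACVRL1, the receptor that ENG assists, by -0.097 (permutation p = 0.371). The ACVRL1 difference ran from -0.16 without L6 to -0.040 without L9, and was -0.023 as a mean over its probes. SMAD7 was not detected. In L6 this list averaged -0.15, and 0 of its 14 genes were at their highest there.

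The junction list around CDH5 and PECAM1 had 5 of 10 detected genes lower in LN, and 3 of 10 without L5 or without L2. CTNNB1, the catenin that binds the tail of CDH5, differed by 0.043. CTNNA1, which links catenins to actin, was at 12.92, 12.90, 12.81 and 12.79 in LN and at 12.65, 12.77, 12.76 and 12.33 in HN. The groups did not overlap, although L9 and L2 were only slightly apart. The difference was 0.23 ± 0.13 (permutation p = 0.0286, adjusted limma p = 0.80), but 0.13 without L10 and 0.10 as a mean over its 4 detected probes, 1 of which was lower in LN.

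Of 40 further endothelial genes detected, 25 were higher and 15 lower in LN, with a median difference of 0.065, and 3 were at an unadjusted p of 0.05, near the 6.05% of all genes and 1 without L3 or without L10. These were KLF4, a flow-induced transcription factor, at 0.57, THBD, the thrombin receptor thrombomodulin, at 0.51, and S1PR1, a sphingosine-phosphate receptor, at 0.37 (0.21 as a mean over its probes). Each overlapped between groups (permutation p = 0.0857 and adjusted limma p of 0.765 to 0.785 for all 3). Without L6, 23 of the 40 genes were lower in LN and the median was -0.058. In L6 itself, 15 of 40 genes (37.5%) had their highest value.

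Of 20 further sinusoidal genes detected, 10 were lower and 10 higher in LN, with a median of -0.0064 that ran from -0.050 without L6 to 0.050 without L1. RSPO3, a secreted enhancer of Wnt signalling that marks central vein endothelium, was at 8.44, 8.22, 8.32 and 8.32 in LN and at 7.94, 7.47, 8.07 and 7.90 in HN. LN lay above HN throughout, with a difference of 0.48 ± 0.15 (permutation p = 0.0286, adjusted limma p = 0.760). FCGR2B, the Fc receptor by which sinusoidal cells take up immune complexes, was at -0.58 ± 0.22 (permutation p = 0.0571, adjusted limma p = 0.760). It was at -0.36 with normexp and at -0.38 as a mean over its probes. STAB1, the paralog of STAB2, differed by 0.082 and F8, the coagulation factor made in sinusoidal cells, by -0.074. CRHBP was not detected. In L6, 10 of 20 sinusoidal genes (50%) were at their highest.

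The lymphatic list had 6 detected genes, 3 lower and 3 higher in LN. At an unadjusted p of 0.05 there were 2, both lower, beside 6.05% of all genes. Without L2 there were also 2 at this p, of which 1 was lower. The number lower in LN ran from 2 without L2 to 4 without L10. PROX1, a transcription factor of lymphatic endothelium and of hepatocytes, was at 9.16, 9.31, 9.30 and 9.01 in LN and at 9.66, 9.47, 9.51 and 9.65 in HN. Every LN value was below every HN value, by -0.38 ± 0.12 (permutation p = 0.0286, adjusted limma p = 0.760). CCL21, a chemokine of lymphatic vessels, was at -1.08 ± 0.45 (permutation p = 0.114, adjusted limma p = 0.785). PDPN, a defining marker of lymphatic endothelium, was not detected.

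**Figure D4:**
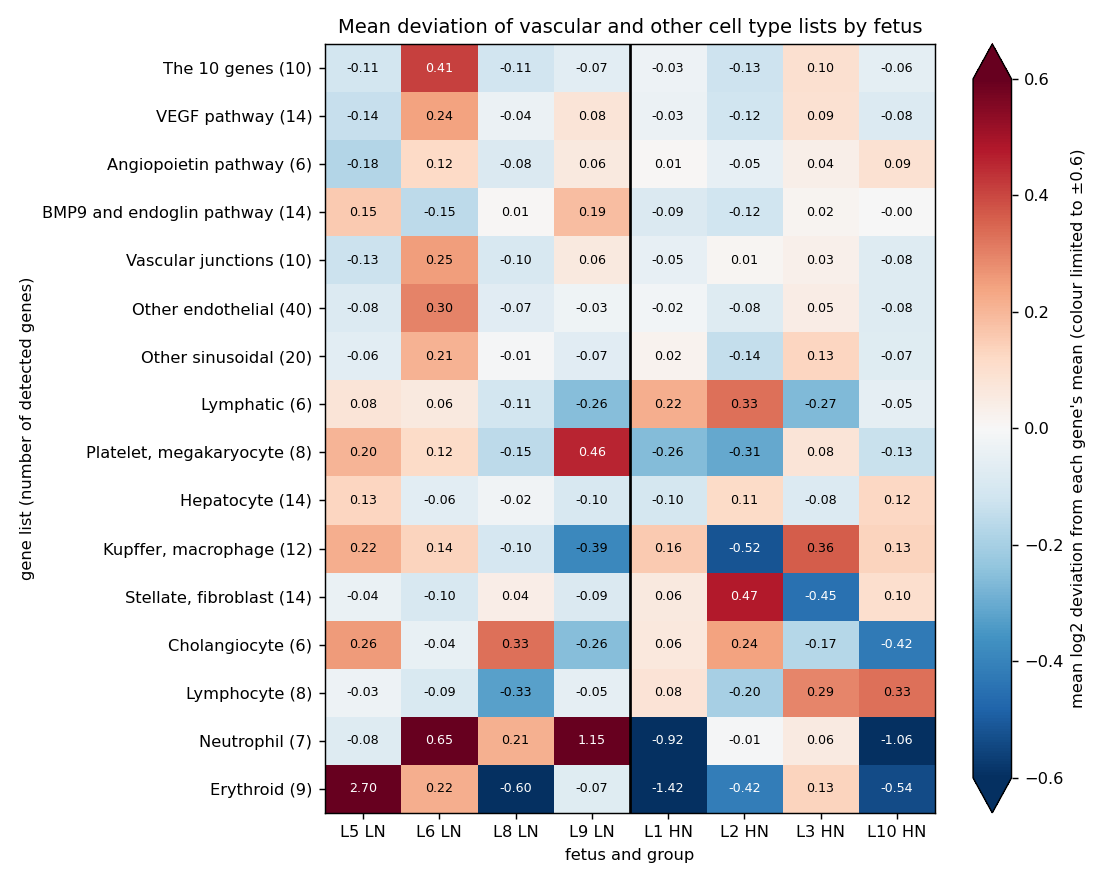
Mean log2 deviation of the detected genes of each list (rows) from each gene's mean over 8 fetuses, in 4 LN and 4 HN fetuses (columns), with the value printed in each cell and colours limited to ±0.6. The 10 genes and the VEGF, junction, other endothelial and other sinusoidal lists reach 0.41, 0.24, 0.25, 0.30 and 0.21 in L6, where the angiopoietin and lymphatic lists are at 0.12 and 0.061, the hepatocyte list at -0.062 and the BMP9 and endoglin list at -0.15, its lowest over the fetuses.

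Other cells of the liver and its blood carry some of the 10 genes, and their lists are given beside these results. The summed signal on the log2 scale of the platelet and megakaryocyte list, cells which carry PECAM1 and VWF, was 12.88 to 13.44 in LN and 12.64 to 13.29 in HN, with 7 of 8 detected genes higher in LN and PF4 at 1.02 (permutation p = 0.0571, adjusted limma p = 0.760). Without L2, 4 of the 8 were higher and their median difference was 0.028 in place of 0.15. GP1BA and GP9, which define platelets, were not matched on the array. Kupffer and macrophage genes had a summed signal of 17.93 to 18.64 in LN and 17.97 to 18.64 in HN, with 8 of 12 lower in LN, and stellate and fibroblast genes 16.69 to 17.04 and 16.58 to 17.60, with 7 of 14 lower. Single fetuses moved these counts. Of the Kupffer and macrophage genes, 4 of 12 were lower without L9 and 11 of 12 without L2, and of the stellate and fibroblast genes, 4 of 14 were lower without L2. In L6 the platelet, Kupffer and stellate lists averaged 0.12, 0.14 and -0.10. Their part in the values of the 10 genes was not tested.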

How the data were processed

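Agilent bovine arrays were hybridised in 1 colour (Cy3) with liver RNA, 4 fetuses in LN and 4 in HN. The authors deposited, per array, the scanner's processed intensity of every spot, background-subtracted by Feature Extraction 11.0.1.1 and not normalized between arrays. A second deposited table holds log2 values of 31068 probes. Quantile normalization in GeneSpring GX is given in the methods, and no test for the arrays is.

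Control spots and 16 outlier-marked probes were left out, and log2 intensities of 43637 probes were quantile normalized. A probe was called detected if 4 or more of the 8 arrays marked it well above background. Accessions of 26743 probes were matched to 12603 genes through a RefSeq table of assembly ARS-UCD2.0. The array was designed on UMD 3.1, and coordinates are left out. Each gene was read by its detected probe of highest mean signal, and probe levels were not compared with each other. Of 28 probes of the 10 genes, 26 were detected. The groups were tested in R 4.3.3 by the moderated fit of limma 3.58.1 (2-sided, adjusted over 33439 probes by Benjamini-Hochberg) and with 2-sided exact permutation of the 35 divisions of 8 fetuses, whose smallest p is 0.0286. The functions were tested on simulated data. The number of arrays limits the precision.

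The 10 genes and the lists were chosen with earlier results of these data known. Named are the 10 genes, their direct ligands and partners, list genes at an unadjusted p of 0.05 or without overlap (at most 6 per list), and the 5 genes outside the lists with the most similar profile, though values of 2 list genes are not reported here; marker genes named as not detected or not matched and 2 platelet markers were added after the values were seen. Alternatives were scaling to the 75th percentile, normexp with an offset of 50, the authors' log2 table, no dim-probe filter, detection on all 8 arrays, eBayes with trend, array position as a block, leaving out each fetus in turn, the mean over probes, and a 2-sided Student's test per probe. Those for the vascular lists, and the lists and correlations without single fetuses, were added after seeing the data.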

Additional observations from a re-analysis of the deposited data

Results flagged for a closer look

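In 4 of 84 groups tested, 1 fetus lay far from the other 3 of its group, about the rate of 1 in 20 that chance gives. HN fetus L10 stood above its group for FLT1, at a log2 signal of 4.81 with the nearest at 4.38. The same fetus stood below its group for TEK, at 10.60 with the nearest at 11.01, and for VEGFC, at 9.18 with the nearest at 9.55. HN fetus L2 stood above its group for F8, at 9.89 with the nearest at 9.65.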

How the results depend on the processing

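Under all 17 alternatives 0 of the 10 genes passed an adjusted limma p of 0.05, with adjusted p-values between 0.695 and 0.9995. At an unadjusted p of 0.05 the count was 0, except 1 (ENG) with the mean over a gene's probes, and ran from 0 to 1 (ENG, without L6) with each fetus left out. The number lower in LN ran from 2 to 6 (6 without L6), and the vascular list genes at an unadjusted p of 0.05 from 6 (without HN fetus L2) to 11 with each fetus left out, with 12 under 75th percentile scaling. Signs turned for PECAM1, CDH5, FLT1 and TIE1 among the 10 genes and for F8, VEGFC, PGF, NRP1, NRP2, ANGPT1, ANGPT2, STAB1 and CTNNB1 around them. With 75th percentile scaling PGF was at -0.0098 and NRP2 at -0.11. With normexp NRP1 was at -0.0056 and NRP2 at -0.0033. With the mean over probes PGF was at -0.047, NRP1 at -0.051, NRP2 at -0.14 and F8 at 0.049. With each fetus left out, log2 differences ran from -0.31 to 0.011 for PECAM1, -0.055 to 0.14 for CDH5, -0.053 to 0.38 for FLT1, -0.14 to 0.16 for TIE1, -0.34 to 0.064 for F8, -0.18 to 0.10 for VEGFC, -0.14 to 0.50 for PGF, -0.11 to 0.16 for NRP1, -0.080 to 0.29 for NRP2, -0.082 to 0.66 for ANGPT2, -0.027 to 0.12 for ANGPT1, -0.13 to 0.29 for STAB1 and -7.5e-05 to 0.10 for CTNNB1. KDR, TEK, LYVE1 and STAB2 stayed higher and ENG and VWF lower in LN under every alternative. The cause of these shifts was not tested. No paired analysis was possible by fetus, because the fetus numbers are not shared between the groups. With array position as a block, which pairs 1 LN and 1 HN array per position, ENG had an adjusted limma p of 0.944. FLT1 was at 0.0080 and GDF2 at 0.013 with 75th percentile scaling, and FLT1 at 0.13 and BMP10 at 0.28 with normexp.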

Other observations

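Genes of the neutrophil list mostly had higher means in LN. Of 7 detected neutrophil genes 6 were higher and 1 was lower in LN, with a median difference of 0.91. Values did not overlap between groups for 3 genes, beside 4.14% of all genes, and overlapped for the rest. MPO, the peroxidase of azurophil granules, was at log2 signals of 8.48, 9.12, 8.30 and 9.62 in LN fetuses L5, L6, L8 and L9 and at 7.46, 7.79, 8.01 and 6.96 in HN fetuses L1, L2, L3 and L10. The difference was 1.32 ± 0.33 (SE, permutation p = 0.0286, adjusted limma p = 0.760). CATHL4, a bovine cathelicidin, differed by 1.78 ± 0.54, and ELANE, neutrophil elastase, by 0.91 ± 0.28, with the same permutation p and adjusted limma p. In L6 the list averaged 0.65 and in L9 1.15 log2 units above the genes' means.

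All 9 detected erythroid genes were higher in LN, with a median of 1.14, but without L5, 7 of 9 were and the median was 0.36. All 8 detected lymphocyte genes had lower means in LN, with a median of -0.16. Without L5, L3 or L10, 6 of 8 had, and the median ran from -0.34 without L2 to -0.090 without L8. In the cholangiocyte list 4 of 6 detected genes were higher, and KRT7, a keratin of bile duct cells, was at 0.67 ± 0.27 (permutation p = 0.0571, adjusted limma p = 0.785). Hepatocyte genes had a median difference of 0.0058 (-0.0017 without L3 to 0.040 without L6), with 8 of 14 higher.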
